A study of Mus musculus with 42 samples.

Results

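Transcripts of 34 mouse genes of glycolysis, of pyruvate entry into mitochondria and of the response to low oxygen were followed across 42 RNA-seq libraries in 15 groups of cells from visceral adipose tissue (VAT), some of them cultured. The genes were chosen by symbol, and all 34 were found in a table of 55011 genes. VmSC5 and VmSC4 are the labels of 2 stromal cell populations of Pparg-Tdt mice. VmSC5 were cultured with oncostatin M (OSM, a cytokine, at 10 ng/mL) or with PBS, and in another experiment with Treg or without Treg (n = 3 each). By their titles the samples were with or without Treg, whereas the series text speaks of medium conditioned by VAT regulatory T (Treg) cells. VmSC5 and VmSC4 were also taken after 8 days of adipogenic differentiation (n = 3 each), a treatment that the labels give for the OSM, PBS and Treg cultures too. Cells transferred into Kaeda recipient mice were recovered as VmSC4-derived VmSC5 (n = 3), VmSC4-derived VmSC4 (n = 3) and VmSC5-derived VmSC5 (n = 2), and fresh VmSC5 and VmSC4 were double-sorted (n = 3 each). Floating cells labelled adipocyte came from Pparg-Tdt:Foxp3-DTR+ mice, whose Treg cells are removed by diphtheria toxin, and from Pparg-Tdt:Foxp3-DTR- littermates. Both genotypes had received the toxin (n = 2 each). Treg cells of eVAT were labelled Osm knockout (KO, genotype OSMf/f) or wild type (WT, OSM+/+; n = 3 each). The labels give no age, no sorting gates and no Cre line, nor whether each replicate had its own animal or culture. The p-values therefore rest on the spread of these libraries, part of which may be technical.

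Glycolysis splits glucose into pyruvate in the cytosol. Hexokinases trap glucose, phosphofructokinase commits it to breakdown, and the lower steps from aldolase to pyruvate kinase yield ATP. Pyruvate is then either reduced to lactate by lactate dehydrogenase and carried out of the cell by monocarboxylate carriers, or enters mitochondria, where the pyruvate dehydrogenase complex turns it into acetyl-CoA. Pyruvate dehydrogenase kinases switch that complex off. Adipocytes use the acetyl-CoA to build fatty acids and the glycolytic intermediates to build glycerol phosphate. HIF-1, made of the oxygen-regulated subunit HIF-1alpha and a constant partner, raises many of these genes in low oxygen. It binds DNA at a short core, ACGTG or GCGTG. Prolyl hydroxylases mark HIF-1alpha for breakdown when oxygen is present.

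Of the 34 genes, 18 (52.9%) held the letters ACGTG, read on either strand, within the 250 bases upstream of a RefSeq start site, against 4998 of 27025 mouse genes (18.5%) in the same table (RefSeq, GRCm38.p6). The windows of the 34 genes were also richer in G and C, with a median of 61.6% against 52.4% for all windows, and among genes with windows of 55.0% to 67.3% GC the share was 22.7%. A gene with more windows has more chances of a match. Counted by window, the letters were in 21 of 48 (43.8%), against 16.6% of all windows and 21.4% in that GC range. By role, the letters were found for 5 of the 5 hypoxia genes, 3 of the 4 lactate genes, 4 of the 9 lower glycolytic genes and 1 of the 4 genes of the pyruvate dehydrogenase complex. The other core, GCGTG, stood out less. It was found for 61.8% of the 34 genes, against 30.9% of all genes and 44.9% of genes in that GC range. Among the hypoxia genes 3 of the 5 held it. The 5 windows shown here belong to genes that recur in the comparisons that follow: Bnip3 and Egln3 in the adipogenic cultures, Slc16a3, Ldha and Pgk1 in the OSM cultures. Each window is written 5′ to 3′ along the gene's own strand and ends at the base before the RefSeq start site. Capitals mark ACGTG or its reverse complement CACGT, and CACGTG holds both, overlapping. A match is a string of letters, not a measured binding site. Other members called in the OSM cultures ran the other way. Pdk1, Eno1, Eno2, Gapdh, Tpi1, Pfkl and Pfkfb4 were higher with OSM and had no match in any window. Pdhb, Pdk2 and Aldoa were lower with OSM and had a match in at least 1 window. Whether the letters go with the direction of change was not tested.
Bnip3 (chr7:138909507-138909756, minus strand): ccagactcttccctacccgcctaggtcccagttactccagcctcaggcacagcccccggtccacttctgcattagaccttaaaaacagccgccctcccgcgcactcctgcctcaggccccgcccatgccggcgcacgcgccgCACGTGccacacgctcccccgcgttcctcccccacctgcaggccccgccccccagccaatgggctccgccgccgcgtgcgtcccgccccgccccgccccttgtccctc
Egln3 (chr12:54203875-54204124, minus strand): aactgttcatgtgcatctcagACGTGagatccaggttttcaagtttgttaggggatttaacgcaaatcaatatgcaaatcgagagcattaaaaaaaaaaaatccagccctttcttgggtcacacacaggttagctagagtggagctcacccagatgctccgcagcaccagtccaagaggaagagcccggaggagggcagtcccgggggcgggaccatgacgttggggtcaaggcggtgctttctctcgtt
Slc16a3 (chr11:120948817-120949066, plus strand): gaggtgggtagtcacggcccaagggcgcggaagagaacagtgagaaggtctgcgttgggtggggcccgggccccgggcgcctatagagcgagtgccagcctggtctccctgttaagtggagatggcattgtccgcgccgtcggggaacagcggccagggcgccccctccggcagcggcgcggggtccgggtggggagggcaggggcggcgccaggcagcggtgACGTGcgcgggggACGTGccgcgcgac
Ldha (chr7:46845554-46845803, plus strand): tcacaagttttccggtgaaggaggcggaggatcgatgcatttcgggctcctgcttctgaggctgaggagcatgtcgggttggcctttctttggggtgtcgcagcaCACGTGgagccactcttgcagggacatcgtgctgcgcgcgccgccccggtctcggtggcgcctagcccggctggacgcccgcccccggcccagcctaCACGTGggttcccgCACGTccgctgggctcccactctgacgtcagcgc
Pgk1 (chrX:106186850-106187099, plus strand): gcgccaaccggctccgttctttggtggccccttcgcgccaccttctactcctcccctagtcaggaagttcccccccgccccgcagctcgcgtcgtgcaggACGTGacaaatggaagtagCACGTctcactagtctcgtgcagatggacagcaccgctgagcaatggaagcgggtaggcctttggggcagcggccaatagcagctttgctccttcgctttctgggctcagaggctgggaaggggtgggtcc

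Libraries held 1072147 to 2078534 counts for OSM and PBS, 4648878 to 7933682 for the cultures with and without Treg, 1841664 to 2606360 for adipogenic cultures, 1967123 to 5044946 for transferred, 8527769 to 12514783 for fresh, 5932453 to 7490677 for floating and 1507163 to 4438234 for Treg cells. Levels are CPM, the counts of a gene per 1000000 counts of its library, and each library holds counts of 32 to 34 of the 34 genes. The labelled cell types carried their markers: the 5 stromal markers summed to 38736 CPM or more in all fresh and transferred libraries, and the 5 Treg markers to 2642 CPM or more in all Treg libraries. The adipogenic cultures are labelled stromal but held 28064 to 30475 CPM of 6 adipocyte markers and 1033 to 1392 CPM of the stromal ones. Osm itself stood at 9.83, 14.6 and 7.76 CPM in the KO Treg libraries, against 29.1, 28.4 and 34.1 CPM in the WT Treg libraries, without overlap. In such bulk samples fewer cells of a type and less RNA per cell cannot be told apart.

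The 34 genes together took a different share of the transcripts in each kind of sample. They held 3.87% to 4.27% of the counts in VmSC5 adipogenic cultures and 3.45% to 3.96% in VmSC4 adipogenic cultures. Shares in the OSM cultures were 1.67% to 1.82%, against 1.30% to 1.36% in the PBS cultures. Cultures with Treg had 1.58% to 1.68%, against 1.89% to 1.97% without Treg. The fresh and transferred stromal cells were the lowest, at 0.268% to 0.432%, and the Treg cells stood at 0.542% to 0.616%. In the adipogenic cultures the mitochondrially encoded transcripts also took 6.05% to 7.26% of the counts, against 0.0722% to 0.423% in the fresh cells. Most members followed the total: 14 were highest in the VmSC5 adipogenic cultures and 5 in the VmSC4 adipogenic cultures. Others did not: Hif1a, Pdk3, Pfkfb4, Slc16a1 and Slc16a3 were highest in the OSM cultures, Dlat, Dld, Hk2, Pdha1 and Pdk2 in the cultures without Treg, Pdk1 in WT Treg cells, Hk1 in KO Treg cells, Pdk4 in cultures with Treg, Pfkfb3 in DTR- floating cells and Eno2 in VmSC4-derived VmSC4. The highest group overlapped the next for 14 of the 34 members, among them Pdk1, at 138 ± 13.2 CPM in WT Treg cells and 136 ± 17.3 CPM in the OSM cultures. Aldoc and Pdk4 had a group at 0 counts. Among the other 32 members the highest group mean was 1336 times the lowest for Egln3 and 402 times for Slc16a3. It was 3.53 times the lowest for Pfkm and 4.43 times for Pdk3.

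**Figure D1:**
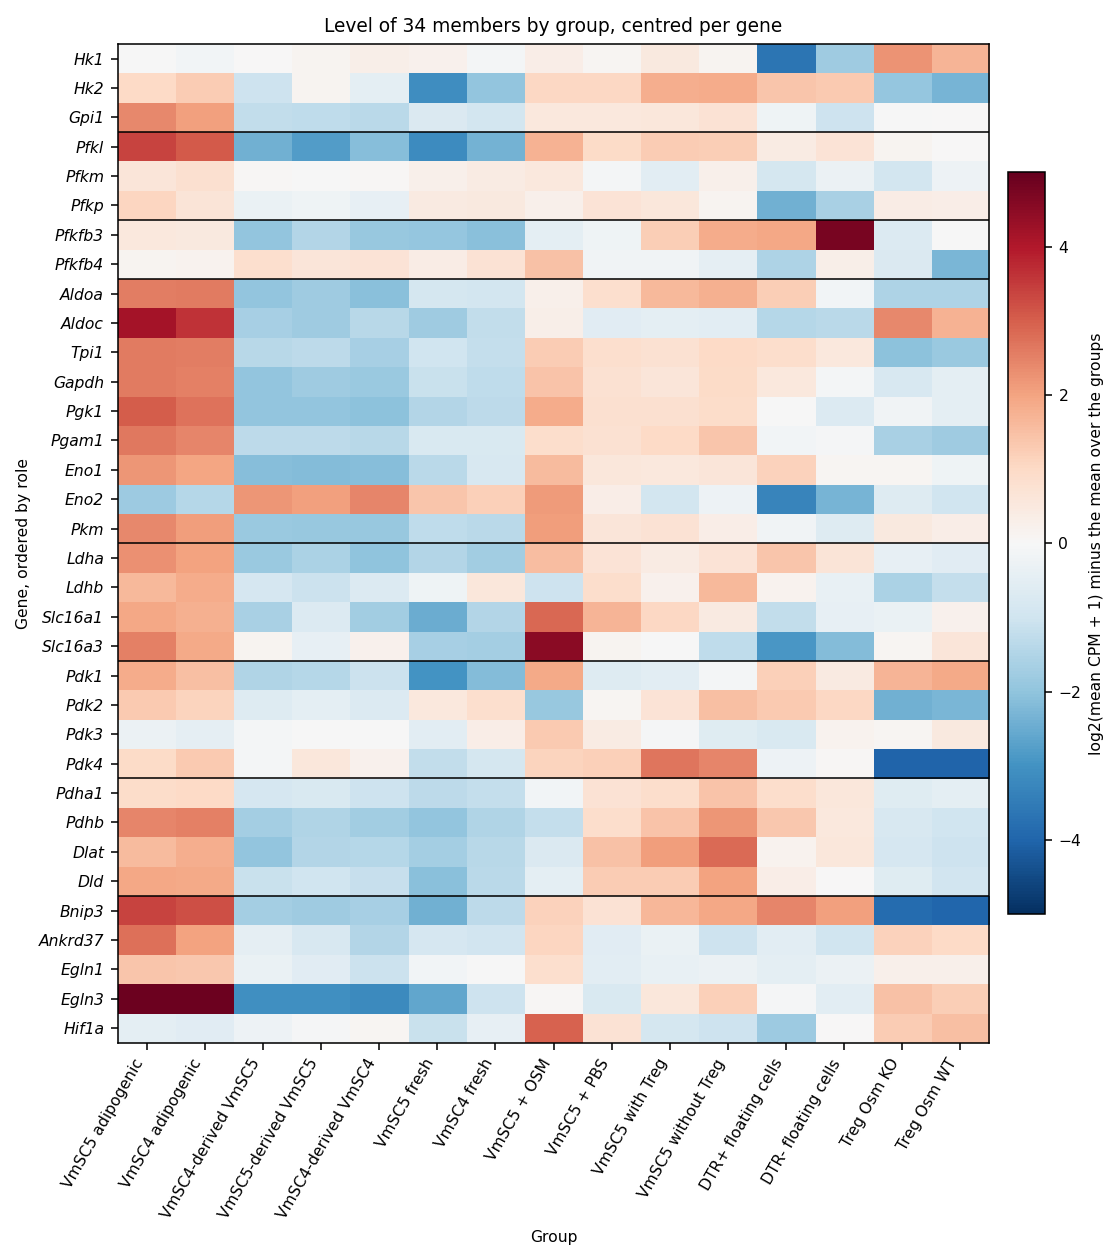
Mean level of each of the 34 genes in each of the 15 groups, as log2(mean CPM + 1) minus the gene's own mean over the groups, with genes ordered by role and colours clipped at 5 either way. Both adipogenic columns are high for most genes, and the OSM column is high for Hif1a, Pdk1, Slc16a1 and Slc16a3 and low for Dlat, Dld and Pdhb beside PBS.

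Which isoform carried a step also differed, on the scale of CPM per kb of exon, which allows genes to be compared. Aldoa, the muscle-type aldolase, was the most abundant member in the adipogenic cultures, at 4700 CPM per kb in VmSC5 and 4817 in VmSC4, followed by Ldha, the lactate dehydrogenase subunit that favours lactate, at 3393 and 2793. Among the 3 phosphofructokinase genes, the liver form Pfkl supplied 78.9 ± 1.18% of the transcripts in VmSC5 adipogenic cultures and 5.30 ± 1.97% in fresh VmSC5, where the platelet form Pfkp supplied 79.8 ± 2.46% (SD, n = 3 each). Of the 2 hexokinases, the insulin-regulated Hk2 made up 96.1 ± 5.49% and 85.6 ± 2.71% of the transcripts in DTR+ and DTR- floating cells (n = 2 each), whereas the housekeeping Hk1 made up 96.0 ± 3.18% and 96.7 ± 0.898% in KO and WT Treg cells (n = 3 each). The neuronal enolase Eno2 supplied 47.4 ± 2.54% of the enolase transcripts in VmSC4-derived VmSC4 and 13.0 ± 3.64% in fresh VmSC4. Pdk4, the starvation-induced kinase, had 0 counts in all 6 Treg cell libraries, where Pdk1 supplied 46.1 ± 5.30% of the kinase transcripts in KO and 45.0 ± 3.40% in WT. These shares are descriptions, and differences between groups in them were not tested.

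**Figure D2:**
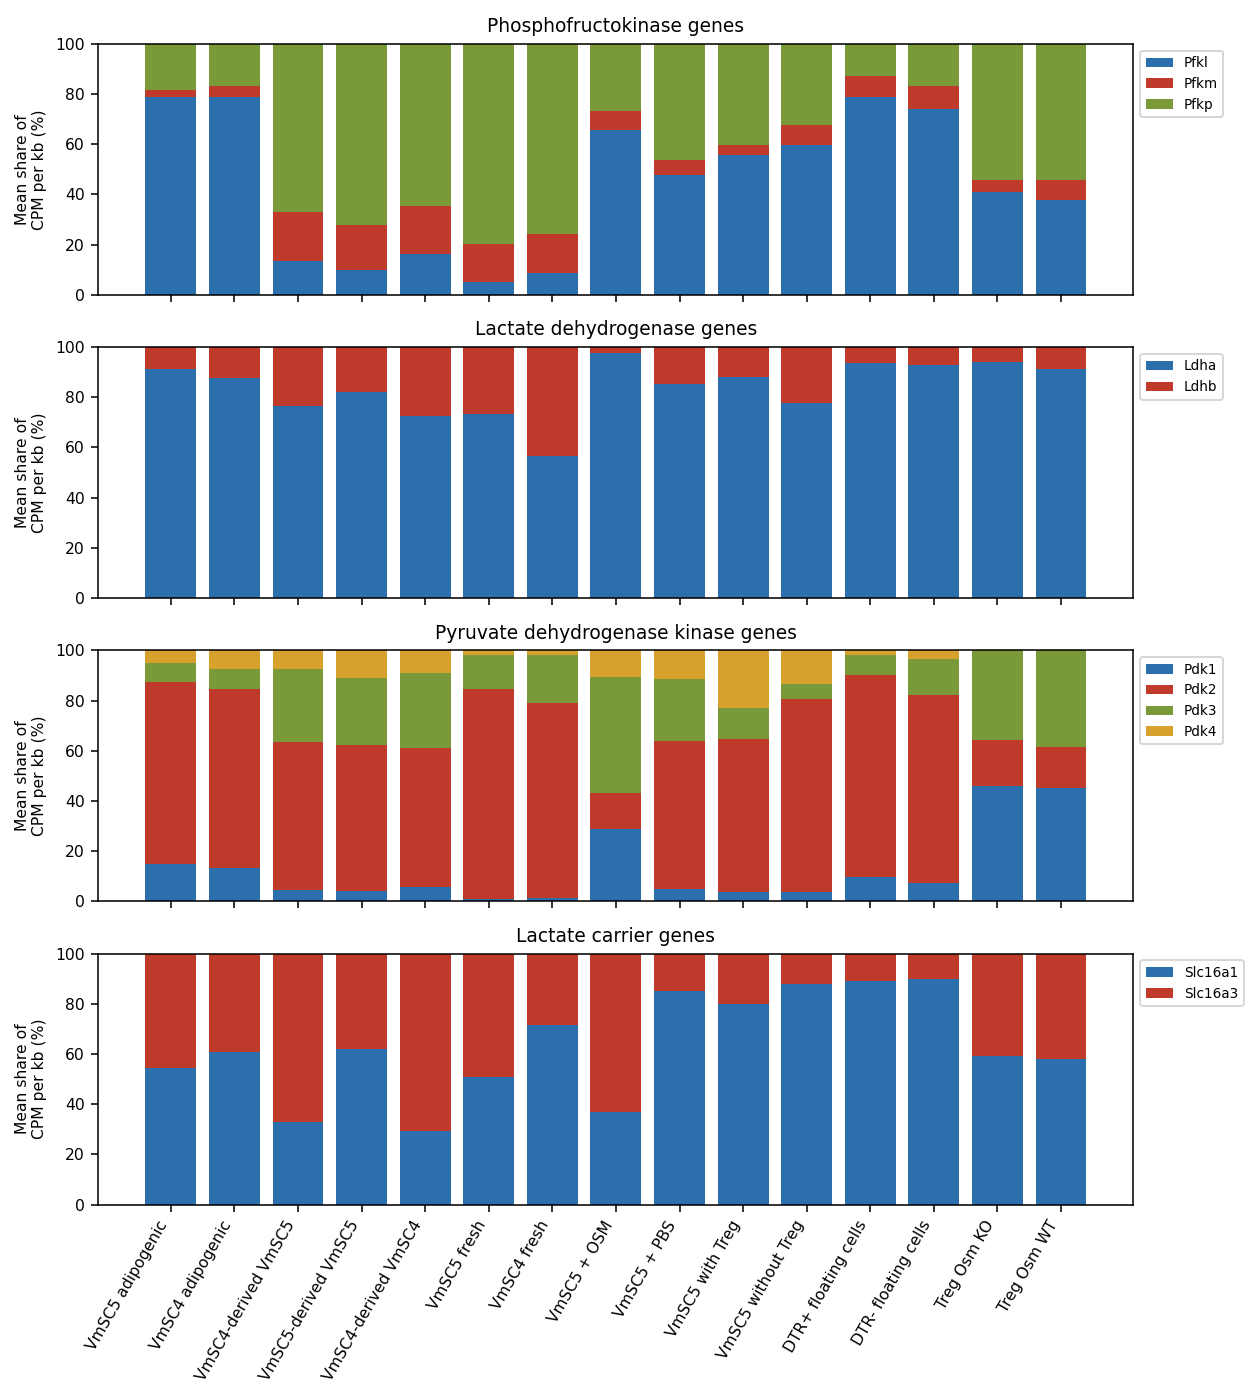
Mean share of each isoform within 4 families (phosphofructokinase, lactate dehydrogenase, pyruvate dehydrogenase kinase, lactate carrier), from CPM per kb of exon, in the 15 groups. Slc16a3 makes up 63.2% of the lactate carrier transcripts in the OSM cultures and 14.8% in the PBS cultures, and Pfkl 78.9% of the phosphofructokinase transcripts in VmSC5 adipogenic cultures and 5.30% in fresh VmSC5.

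The OSM cultures addressed which transcripts the cytokine alters in VmSC5 under adipogenic differentiation. Both lactate carriers, most lower glycolytic enzymes, Hif1a and the kinases Pdk1 and Pdk3 rose, and all 4 genes of the pyruvate dehydrogenase complex fell. Of 32 members tested, 18 were higher with OSM (22.8% of all 9825 genes tested were higher) and 8 were lower (23.0%). A gene counts as higher or lower where edgeR's quasi-likelihood test gave a Benjamini-Hochberg adjusted p under 0.05 over all genes tested, and SE is that of the fitted log2 fold change. The median log2 fold change was 0.66 over the members and 0.00 over all genes, and 26 of the 32 tested members did not overlap between the groups, against 53.6% of all genes tested. Scaling by total counts in place of TMM factors gave 1905 genes higher and 2669 lower, against 2245 and 2255.

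The largest change among the members was in Slc16a3, which encodes MCT4, the lactate exporter of glycolytic cells. It stood at 319, 251 and 323 CPM in the OSM cultures, against 12.4, 16.8 and 10.2 CPM in the PBS cultures with no overlap. Its log2 fold change was 4.54 ± 0.16 (SE; edgeR adjusted p = 5.15e-28), and the Slc16a3 window printed above carries ACGTG at 2 places. Slc16a1, which encodes the broader carrier MCT1, was at 161, 204 and 149.8 CPM with OSM and 78.8, 69.3 and 79.3 CPM with PBS (1.28 ± 0.13, edgeR adjusted p = 6.04e-12). Slc16a3 thereby took 63.2 ± 7.15% of the carrier transcripts per kb with OSM and 14.8 ± 4.20% with PBS. The 2 lactate dehydrogenase subunits moved in opposite directions. Ldha had 3711, 3742 and 4114 CPM in the OSM cultures, against 2084, 2101 and 2202 CPM in the PBS cultures (0.96 ± 0.08, edgeR adjusted p = 2.61e-15). Ldhb, the subunit that favours pyruvate, had 70.6, 66.2 and 65.0 CPM with OSM, against 245, 248 and 275 CPM with PBS (-1.82 ± 0.12, edgeR adjusted p = 1.73e-18). Neither subunit overlapped between the groups, and Ldhb supplied 2.48 ± 0.224% of the lactate dehydrogenase transcripts with OSM and 14.9 ± 0.420% with PBS.

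Of the 4 kinases that shut the pyruvate dehydrogenase complex, 2 rose and 1 fell. Pdk1, the kinase known as a HIF-1 target, was at 156, 127 and 126 CPM with OSM and 17.8, 24.5 and 25.6 CPM with PBS (2.68 ± 0.17, edgeR adjusted p = 4.53e-19). Pdk3 was at 71.4, 96.1 and 98.6 CPM with OSM and 37.9, 54.8 and 46.0 CPM with PBS (1.02 ± 0.16, edgeR adjusted p = 6.91e-07). All 3 OSM libraries lay above all 3 PBS libraries for both genes. Pdk2, the most widely expressed kinase, ran the other way, at 33.7, 27.0 and 26.3 CPM with OSM and 101, 127 and 122 CPM with PBS (-1.91 ± 0.16, edgeR adjusted p = 4.51e-14). Pdk4 had 38.5, 26.1 and 37.5 CPM with OSM and 32.4, 38.5 and 35.8 CPM with PBS, overlapping, and was not called. Per kb, Pdk2 supplied 14.2 ± 2.17% of the kinase transcripts with OSM and 58.9 ± 1.13% with PBS, while Pdk1 supplied 29.0 ± 3.99% and 4.92 ± 0.448%.

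The 4 genes of the complex all fell. Dlat, its acetyltransferase core, was at 76.2, 68.1 and 73.6 CPM with OSM, against 336, 300.2 and 350.4 CPM with PBS (-2.06 ± 0.11, edgeR adjusted p = 2.82e-21). Pdhb, the beta subunit of its first enzyme, was at 107, 118 and 110.4 CPM with OSM, against 504, 446 and 478 CPM with PBS (-1.98 ± 0.10, edgeR adjusted p = 8.76e-23). For both genes every OSM library lay below every PBS library. Dld, the dehydrogenase shared with other complexes, fell by 1.68 ± 0.11 and Pdha1, the alpha subunit, by 0.74 ± 0.09 on the log2 scale (edgeR adjusted p = 2.1e-18 and 2.41e-10). In the list of mitochondrial pyruvate carriers and partner enzymes, 8 of 10 tested genes were lower with OSM and 0 higher. Among them were both carrier subunits, Mpc1 (-1.83 ± 0.25, edgeR adjusted p = 4e-08) and Mpc2 (-1.84 ± 0.15, edgeR adjusted p = 9.28e-15), and Pcx, pyruvate carboxylase (-2.88 ± 0.10, edgeR adjusted p = 1.25e-29).

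Higher with OSM were 6 of the 8 tested members from aldolase to pyruvate kinase. Pkm, pyruvate kinase, led in abundance, at 2922, 2834 and 3166 CPM with OSM and 975, 1034 and 1150.1 CPM with PBS (1.60 ± 0.08, edgeR adjusted p = 1.09e-22). Eno2 was at 57.8, 53.2 and 57.2 CPM with OSM and 17.0, 10.6 and 18.8 CPM with PBS (2.03 ± 0.23, edgeR adjusted p = 1.34e-10). Pgk1, phosphoglycerate kinase, had 307, 271 and 298 CPM with OSM and 147, 133 and 138 CPM with PBS (1.18 ± 0.10, edgeR adjusted p = 3.02e-14). None of these 3 genes overlapped between the groups. Eno1, the general enolase, rose by 1.11 ± 0.08, Gapdh by 0.75 ± 0.08 and Tpi1, triose phosphate isomerase, by 0.57 ± 0.08. Gapdh shared 90% or more identity over at least 300 bases with transcripts of 113 other genes, which held a median of 6.84% of the counts summed over Gapdh and them, so its level is less certain. Aldoa was the exception, at 2272, 2371 and 2737 CPM with OSM and 3419, 3752 and 3728 CPM with PBS (-0.46 ± 0.08, edgeR adjusted p = 2.85e-06). Pgam1, phosphoglycerate mutase, was at 88.3, 97.9 and 80.8 CPM with OSM and 71.1, 79.4 and 94.6 CPM with PBS and was not called.

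Upstream, the phosphofructokinase forms parted. Pfkl was at 445, 414 and 479.6 CPM with OSM and 259, 249.7 and 271 CPM with PBS (0.89 ± 0.09, edgeR adjusted p = 4.75e-12), and Pfkp at 194, 224 and 213 CPM with OSM and 277, 304 and 288 CPM with PBS (-0.36 ± 0.09, edgeR adjusted p = 0.00135). Pfkm, the muscle form, was higher by 0.77 ± 0.22 in edgeR (adjusted p = 0.00269) but missed the threshold in DESeq2 (adjusted p = 0.0569). Pfkfb4, one of the enzymes that set the phosphofructokinase activator fructose 2,6-bisphosphate, was at 64.2, 75.5 and 66.4 CPM with OSM and 17.8, 22.1 and 23.9 CPM with PBS (1.78 ± 0.19, edgeR adjusted p = 5.06e-11). Pfkfb3, the other such enzyme, had 58.6, 45.7 and 42.1 CPM with OSM and 74.9, 55.8 and 50.3 CPM with PBS and was not called. The first steps did not pass either: Hk2 had 86.7, 76.5 and 80.2 CPM with OSM and 76.5, 84.2 and 85.3 CPM with PBS, Hk1 70.6, 63.4 and 62.4 and 57.2, 56.3 and 54.6, and Gpi1, glucose phosphate isomerase, 781, 715 and 767 and 739, 778 and 801. Of 4 glucose transporters tested, Slc2a1, the basal transporter GLUT1, was higher (1.86 ± 0.16, edgeR adjusted p = 9.73e-14), as was Slc2a3 (2.42 ± 0.18), and the insulin-responsive Slc2a4, or GLUT4, was lower (-3.71 ± 0.40, edgeR adjusted p = 6.91e-11).

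All 4 tested hypoxia members were called higher with OSM in edgeR, though Egln3 kept its call in 5 of 12 alternative fits. Hif1a was at 946, 896 and 739 CPM with OSM, against 185, 185 and 177 CPM with PBS (2.34 ± 0.09, edgeR adjusted p = 1.51e-26) with no overlap. Egln1, the prolyl hydroxylase PHD2, had 22.5, 29.8 and 21.7 CPM with OSM and 6.95, 7.22 and 12.8 CPM with PBS (1.59 ± 0.32, edgeR adjusted p = 3.71e-05). Bnip3, a mitophagy receptor, had 181, 168 and 183 CPM with OSM and 129, 124 and 134 CPM with PBS (0.57 ± 0.11, edgeR adjusted p = 2.38e-05). Egln3, or PHD3, overlapped between the groups, at 11.2, 8.39 and 12.5 CPM with OSM and 8.50, 3.37 and 5.12 CPM with PBS. Its call (1.11 ± 0.42, edgeR adjusted p = 0.0265) was lost in DESeq2 (adjusted p = 0.237). The edgeR call ended with the replicate block (0.0514), with no filter on low counts (0.0846), without OSM replicate 1 (0.072) or 3 (0.116) and without PBS replicate 2 (0.223) or 3 (0.075). Ankrd37, a small HIF-1 target, did not reach the count minimum, at 4.81, 7.46 and 5.26 CPM with OSM and 0.773, 1.92 and 0.853 CPM with PBS. Of 14 other known HIF targets tested, 13 were higher with OSM and 1 lower, led by P4ha2, a collagen prolyl hydroxylase subunit (2.48 ± 0.09, edgeR adjusted p = 2.8e-28). Marker sums moved in these cultures too. The 5 stromal markers summed to 47224 to 57348 CPM with OSM, against 10472 to 10890 CPM with PBS, and the 6 adipocyte markers to 949 to 1400 CPM, against 10902 to 12820 CPM, with Lep at 0 in both groups. Endothelial markers summed to 89.9 to 106 CPM with OSM and 17.9 to 25.0 CPM with PBS, and macrophage markers to 272 to 448 CPM with OSM and 293 to 305 CPM with PBS. Mesothelial markers summed to 5.62 to 9.20 CPM with OSM and 23.9 to 42.5 CPM with PBS, and mitochondrially encoded transcripts took 1.53% to 1.64% of the counts with OSM and 2.40% to 2.92% with PBS. The part of these markers and of the mitochondrial share in the members' changes was not tested.

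**Figure D3:**
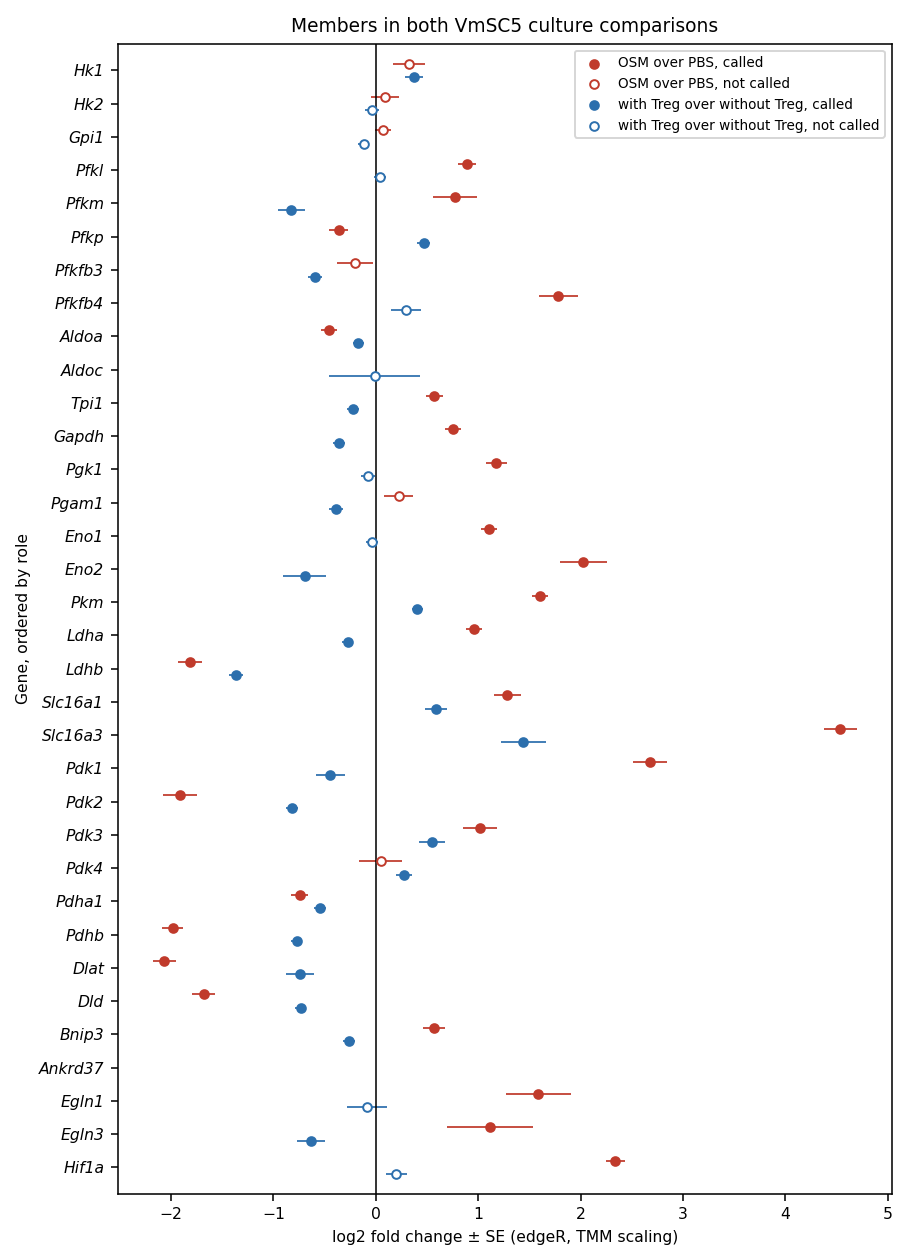
Log2 fold change ± SE of each member in the OSM over PBS cultures and in the cultures with over without Treg, from edgeR with TMM scaling. Filled points passed an adjusted p under 0.05, open points did not, and genes without a point were not tested. Slc16a3 is the farthest to the right for OSM at 4.54, and the pyruvate dehydrogenase complex lies left of 0 in both comparisons.

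The Treg cultures addressed whether VAT Treg cells act on the differentiation of VmSC5. More members were lower than higher with Treg. All 4 genes of the pyruvate dehydrogenase complex, several lower glycolytic enzymes, both lactate dehydrogenase subunits and 2 hypoxia genes fell, whereas both lactate carriers and pyruvate kinase rose. Of 33 members tested, 7 were higher (22.4% of all 12356 genes tested were higher) and 17 were lower (21.0%). The median log2 fold change was -0.17 over the members and 0.00 over all genes, and 25 of the 33 tested members did not overlap between the groups, against 51.8% of all genes tested.

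Ldhb was the member with the smallest adjusted p. It stood at 158, 147 and 183 CPM with Treg, against 434, 417 and 418 CPM without Treg, less in every library (-1.37 ± 0.07, edgeR adjusted p = 2.81e-18). Ldha was at 1665, 1738 and 1822 CPM with Treg and 2188, 2096 and 2082 CPM without Treg (-0.27 ± 0.05, edgeR adjusted p = 5.9e-05). Ldhb supplied 11.9 ± 0.898% of the lactate dehydrogenase transcripts per kb with Treg and 22.5 ± 0.118% without Treg. The lactate carriers ran the other way. Slc16a3 had 14.6, 10.4 and 10.7 CPM with Treg and 5.56, 3.83 and 3.87 CPM without Treg (1.44 ± 0.22, edgeR adjusted p = 1.21e-06), and Slc16a1 had 55.8, 43.8 and 41.9 CPM with Treg and 32.7, 33.0 and 29.0 CPM without Treg (0.59 ± 0.11, edgeR adjusted p = 4.08e-05). For neither carrier did the groups overlap, although Slc16a3 stayed a low transcript in both. Emb, the embigin chaperone of such carriers, was higher as well (2.83 ± 0.13, edgeR adjusted p = 4.72e-20), at 59.1 ± 6.15 CPM with Treg and 8.35 ± 0.357 CPM without Treg (SD, n = 3 each).

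The 4 genes of the pyruvate dehydrogenase complex all fell with Treg. Pdhb stood at 682, 662 and 706 CPM with Treg and 1196, 1204 and 1127 CPM without Treg (-0.77 ± 0.05, edgeR adjusted p = 1.88e-14), and Dld at 326, 327 and 336 CPM with Treg and 545, 564 and 551 CPM without Treg (-0.74 ± 0.06, edgeR adjusted p = 1.2e-13). Pdha1 had 577, 585 and 651 CPM with Treg, against 896, 894 and 871 CPM without Treg (-0.54 ± 0.06, edgeR adjusted p = 4.01e-10). None of the 3 genes overlapped between the groups. Dlat was at 557, 562 and 406 CPM with Treg and 879, 869.9 and 819 CPM without Treg (-0.74 ± 0.14, edgeR adjusted p = 0.00835), with the third Treg library low, and its adjusted p was 0.0556 without the second library of the cultures without Treg. Of 10 tested pyruvate carriers and partner enzymes 8 were lower and 0 higher, among them Mpc1 (-0.68 ± 0.06, edgeR adjusted p = 5.03e-11) and Mpc2 (-0.47 ± 0.06, edgeR adjusted p = 2.11e-07). The kinases split: Pdk2 was at 173, 170.3 and 184 CPM with Treg and 322, 305 and 313 CPM without Treg (-0.82 ± 0.06, edgeR adjusted p = 5.84e-14), and Pdk3 rose by 0.55 ± 0.13 (edgeR adjusted p = 0.000675). Pdk1 had 26.2, 29.2 and 17.7 CPM with Treg and 35.8, 32.4 and 32.3 CPM without Treg (-0.45 ± 0.14, edgeR adjusted p = 0.0114). That call was lost in DESeq2 (adjusted p = 0.0501), without replicate 3 of the cultures with Treg (0.0791) and without replicate 1 of those without Treg (0.0694). Pdk4 had 98.7, 109 and 98.4 CPM with Treg and 76.9, 86.5 and 92.7 CPM without Treg (0.27 ± 0.08, edgeR adjusted p = 0.00393), a call lost without replicate 1 of the cultures without Treg (0.072) and when both culture experiments entered 1 fit (0.0566).

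In the glycolytic steps, Pkm rose to 1126, 1162 and 1179.6 CPM with Treg, against 895, 869 and 878 CPM without Treg (0.40 ± 0.05, edgeR adjusted p = 5.91e-08), and Pfkp to 263, 276 and 259.7 CPM, against 196, 192 and 193 CPM (0.47 ± 0.06, edgeR adjusted p = 4.32e-08). Hk1 was at 66.9, 78.5 and 77.8 CPM with Treg and 59.4, 55.4 and 59.2 CPM without Treg (0.37 ± 0.08, edgeR adjusted p = 0.000353). These 3 genes were higher in every library with Treg, whereas Hk2 overlapped, at 139.5, 135 and 146 CPM with Treg and 155, 141 and 139 CPM without Treg. Pfkm had 19.9, 16.4 and 18.9 CPM with Treg and 37.5, 34.4 and 26.5 CPM without Treg (-0.83 ± 0.13, edgeR adjusted p = 2.22e-06). Pfkfb3 had 165, 163 and 168 CPM with Treg and 281, 245 and 228 CPM without Treg (-0.59 ± 0.07, edgeR adjusted p = 3.61e-09). Of the 9 members from aldolase to pyruvate kinase 5 fell, by 0.17 to 0.70 on the log2 scale, namely Aldoa, Tpi1, Gapdh, Pgam1 and Eno2. The Eno2 call (-0.70 ± 0.21, edgeR adjusted p = 0.00596) was lost in DESeq2 (adjusted p = 0.0554). Slc2a4 was lower with Treg (-0.96 ± 0.06, edgeR adjusted p = 7.67e-16) and Slc2a1 higher (0.48 ± 0.16, edgeR adjusted p = 0.0138), though Slc2a1 did not pass in DESeq2 (adjusted p = 0.078).

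Hif1a was not called with Treg, at 65.0, 62.1 and 52.8 CPM with Treg and 60.4, 44.6 and 53.3 CPM without Treg (0.20 ± 0.10, edgeR adjusted p = 0.113), but passed without replicate 3 of the cultures with Treg (0.0104) or replicate 1 of those without Treg (0.0236). Bnip3 had 249.8, 245 and 261 CPM with Treg and 305, 314 and 297 CPM without Treg (-0.27 ± 0.06, edgeR adjusted p = 0.000333), and Egln3 had 14.0, 15.6 and 17.4 CPM with Treg and 21.9, 25.3 and 26.5 CPM without Treg (-0.64 ± 0.14, edgeR adjusted p = 0.000226). Both were lower in every library with Treg. Among 14 other HIF targets 5 were higher and 4 lower, and Epas1, which encodes HIF-2alpha, was higher (0.96 ± 0.07, edgeR adjusted p = 6.52e-15). Adipocyte markers summed to 12550 to 14321 CPM with Treg, against 20247 to 22060 CPM without Treg, and stromal markers to 10508 to 12271 CPM, against 3911 to 4556 CPM. Macrophage markers summed to 103 to 121 CPM with Treg and 219 to 254 CPM without Treg, and mitochondrially encoded transcripts took 1.78% to 2.03% of the counts with Treg and 4.13% to 4.42% without Treg. The 5 Treg markers summed to 3.06 to 4.16 CPM with Treg, with Foxp3 and Cd3e at 0, and to 3.47 to 4.09 CPM without Treg, with Ctla4 at 0. The part of the stromal, adipocyte and macrophage makeup in the members' changes was not tested.

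**Figure D4:**
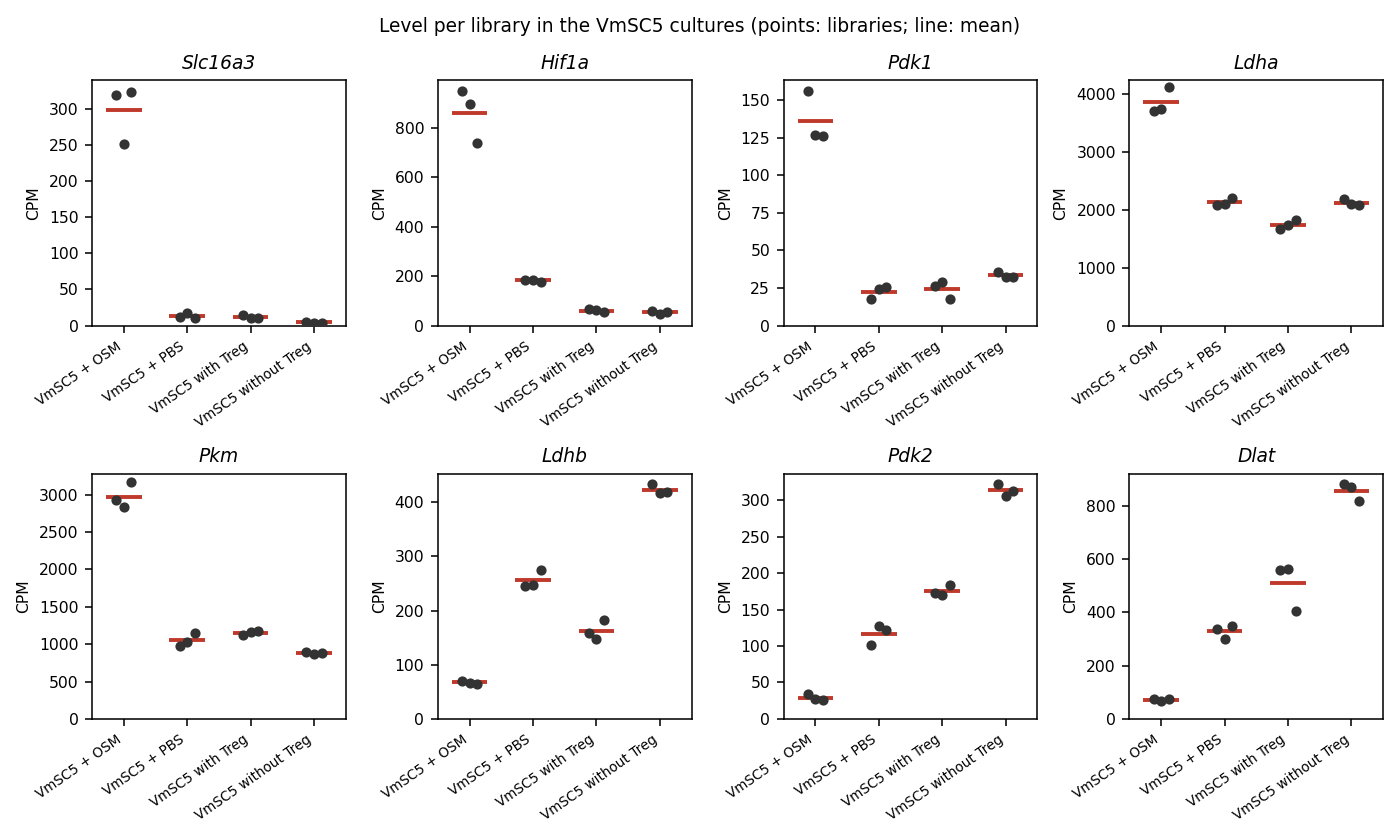
Level in CPM of 8 members in each library of the VmSC5 cultures with OSM, with PBS, with Treg and without Treg, on linear axes from 0, with points for libraries and a line for the group mean. For Slc16a3 and Hif1a the 3 OSM libraries stand alone, and for Ldhb, Pdk2 and Dlat the libraries with OSM and with Treg each lie below their own controls.

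The OSM and Treg experiments share no library, so their member calls can be set side by side. Of the 18 members higher with OSM, 4 (22.2%) were also higher with Treg, which is 57.1% of the 7 higher with Treg: Pdk3, Pkm, Slc16a1 and Slc16a3. Of the 8 lower with OSM, 7 (87.5%) were also lower with Treg, which is 41.2% of the 17 lower with Treg: Aldoa, Dlat, Dld, Ldhb, Pdha1, Pdhb and Pdk2. Over all genes tested, 22.4% were higher and 21.0% lower with Treg, and the 22.2% of members lies near the first share. Calls shared by both experiments were not counted over all genes. Another 9 were called in opposite directions, with Bnip3, Egln3, Eno2, Gapdh, Ldha, Pdk1, Pfkm and Tpi1 higher with OSM and lower with Treg, and Pfkp the reverse. The difference between the 2 responses was tested as a contrast of the 4 groups in 1 fit. Of 33 members tested 26 differed (32.5% of all 12112 genes tested differed), 19 with a positive and 7 with a negative difference (OSM response minus Treg response), with a median of 0.84 over the members and 0.03 over all genes. Total-count scaling gave 1347 genes with a positive and 2635 with a negative difference, against 1817 and 2124 with TMM factors. The difference in log2 response was 3.17 ± 0.23 for Pdk1, 3.14 ± 0.31 for Slc16a3, 2.77 ± 0.31 for Eno2, 2.18 ± 0.14 for Hif1a and 1.27 ± 0.09 for Ldha (edgeR adjusted p = 4.91e-15, 3.22e-11, 7.01e-10, 2.44e-14 and 6.59e-16). Pdk1, Eno2 and Ldha were thereby called in opposite directions, and Slc16a3 in the same one. In the complex, the fall with OSM was the greater for Dlat (-1.28 ± 0.16), Pdhb (-1.17 ± 0.11) and Dld (-0.91 ± 0.12; edgeR adjusted p = 3.22e-07, 2.59e-12 and 2.09e-08). Pdha1 did not pass, with a difference of -0.16 ± 0.10 (edgeR adjusted p = 0.23). The experiments also differ in depth and in their controls: the 6 adipocyte markers summed to 10902 to 12820 CPM in the PBS cultures and 20247 to 22060 CPM in the cultures without Treg.

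Adipogenic culture raised nearly the whole set in both populations. Every step from phosphofructokinase to the pyruvate dehydrogenase complex held members that rose, and the hypoxia genes Egln3 and Bnip3 were among the largest. In VmSC5, 31 of the 34 members were higher than in fresh cells (33.4% of all 13221 genes tested were higher) and 1 was lower (37.6%). In VmSC4, 30 were higher (31.9%) and 1 was lower (38.5%). All 30 of the VmSC4 calls were among the 31 of VmSC5 (96.8%). With nearly every member called in each population, such an overlap had little room to be smaller. Calls shared by both populations were not counted over all genes. The median log2 fold change of the members was 3.93 in VmSC5 and 3.80 in VmSC4, against -0.18 and -0.23 over all genes. Total-count scaling lowered the median of all genes by 0.43 in VmSC5 and by 0.54 in VmSC4, and with it 29 members were higher and 1 lower in VmSC5, and 27 and 3 in VmSC4. The split of all genes then became 3484 higher and 6416 lower in VmSC5, against 4416 and 4973, and 3013 and 7046 in VmSC4, against 4212 and 5095.

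Among the hypoxia genes Egln3 had the widest gap. It stood at 352, 312 and 337 CPM in VmSC5 adipogenic cultures, against 0.927, 1.49 and 0.235 CPM in fresh VmSC5 (8.93 ± 0.36, edgeR adjusted p = 3.53e-11). The VmSC4 adipogenic cultures had 351, 287 and 378 CPM of Egln3, against 7.03, 3.93 and 2.65 CPM in fresh VmSC4 (6.74 ± 0.30, edgeR adjusted p = 9.69e-11). Bnip3 was at 871, 771 and 859.8 CPM in VmSC5 adipogenic cultures, against 17.2, 14.9 and 10.3 CPM in fresh VmSC5 (6.30 ± 0.17, edgeR adjusted p = 8.86e-21). Both genes were low transcripts in fresh cells and far apart from them in every culture library, and both carry ACGTG in the windows printed above. Members with no match in any window rose in both populations too, among them Aldoc, Pfkl, Pdk1, Gapdh, Tpi1 and Gpi1. Whether the letters go with the size of the rise was not tested. Copies of Bnip3 held a median of 1.44% of the counts shared with it, though up to 59.3% in 1 library. Ankrd37 was at 22.4, 22.8 and 16.6 CPM in VmSC5 adipogenic cultures and 1.03, 0.957 and 0.352 CPM in fresh VmSC5 (5.10 ± 0.41, edgeR adjusted p = 1.83e-11). Hif1a moved little by comparison, at 79.5, 84.4 and 71.6 CPM in VmSC5 adipogenic cultures and 55.9, 55.2 and 40.2 CPM in fresh VmSC5 (1.07 ± 0.17, edgeR adjusted p = 4.2e-06). In VmSC4 it overlapped, at 51.0, 86.7 and 85.7 CPM in adipogenic cultures and 84.4, 77.9 and 86.9 CPM in fresh cells, and its direction turned with the scaling, at 0.39 ± 0.17 with TMM factors (edgeR adjusted p = 0.0387) and -0.15 with total counts (adjusted p = 0.417).

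**Figure D5:**
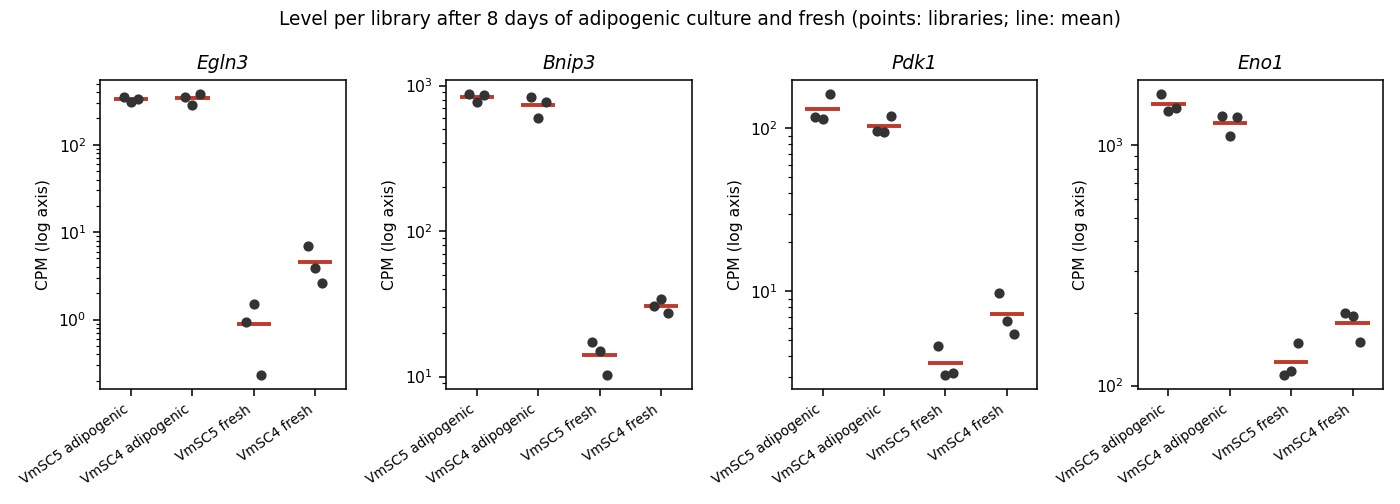
Level in CPM, on a log axis, of Egln3, Bnip3, Pdk1 and Eno1 in each library of VmSC5 and VmSC4 adipogenic cultures and of fresh VmSC5 and VmSC4, with points for libraries. The 6 culture libraries lie close together and above all fresh ones, and the fresh VmSC5 libraries lie below the fresh VmSC4 libraries for Egln3 and Bnip3.

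Early steps changed their isoform. Pfkl was at 1408, 1371 and 1388 CPM in VmSC5 adipogenic cultures, against 11.4, 10.9 and 20.2 CPM in fresh VmSC5 (7.04 ± 0.31, edgeR adjusted p = 6.06e-10), while Pfkp was higher by 1.01 ± 0.11 (edgeR adjusted p = 1.44e-08). In VmSC4, Pfkl was at 1228, 971 and 1171 CPM in adipogenic cultures and 34.04, 17.4 and 23.3 CPM in fresh cells (6.03 ± 0.29, edgeR adjusted p = 1.74e-09). Hk2 was at 86.4, 74.5 and 79.1 CPM in VmSC5 adipogenic cultures, against 2.47, 4.89 and 3.75 CPM in fresh VmSC5 (4.85 ± 0.22, edgeR adjusted p = 7.79e-17). Hk1 was not called in either population, at 34.8, 53.4 and 66.3 CPM in VmSC5 adipogenic cultures and 66.2, 67.7 and 49.0 CPM in fresh VmSC5. Per kb, Hk2 supplied 57.9 ± 9.15% of the hexokinase transcripts in VmSC5 adipogenic cultures and 5.07 ± 1.69% in fresh VmSC5. Slc2a4 rose by 7.54 ± 0.48 in VmSC5 and 5.43 ± 0.40 in VmSC4, and Slc2a1 by 3.00 ± 0.21 and 3.04 ± 0.21 (edgeR adjusted p = 3.06e-07, 1.04e-06, 9.65e-11 and 7.16e-11), whereas Slc2a3, the high-affinity GLUT3, fell by 3.21 ± 0.48 and 3.33 ± 0.45.

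Below phosphofructokinase the members rose together, apart from Eno2. Aldoa was at 12740.5, 11652 and 11774 CPM in VmSC5 adipogenic cultures, against 1079, 1156 and 1104 CPM in fresh VmSC5 (3.86 ± 0.12, edgeR adjusted p = 4.83e-20). Pgk1 was at 690.4, 597 and 644 CPM in VmSC5 adipogenic cultures, against 28.5, 28.4 and 27.4 CPM in fresh VmSC5 (4.94 ± 0.15, edgeR adjusted p = 2.86e-20). No fresh library came near a culture library for either gene. Gpi1, Tpi1, Gapdh, Pkm and Ldha rose by 3.56 ± 0.13, 4.04 ± 0.12, 4.15 ± 0.12, 4.12 ± 0.14 and 4.17 ± 0.15 in VmSC5. Aldoc, the brain-type aldolase, had 0 counts in fresh VmSC5 and 68.3, 54.2 and 58.8 CPM in VmSC5 adipogenic cultures, which is at least 558-fold higher if the fresh group as a whole is set to 3 counts. Eno2 alone fell, at 2.58, 3.44 and 2.14 CPM in VmSC5 adipogenic cultures, against 28.3, 44.8 and 28.4 CPM in fresh VmSC5 (-3.18 ± 0.34, edgeR adjusted p = 5.11e-09). The VmSC4 adipogenic cultures had 3.80, 4.99 and 2.79 CPM of Eno2, against 33.1, 22.0 and 33.4 CPM in fresh VmSC4 (-2.37 ± 0.32, edgeR adjusted p = 3.24e-07).

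Routes to lactate and to acetyl-CoA both rose. Slc16a3 was at 76.9, 67.1 and 74.8 CPM in VmSC5 adipogenic cultures, against 3.81, 2.34 and 3.17 CPM in fresh VmSC5 (4.97 ± 0.27, edgeR adjusted p = 6.36e-14). Pdhb was at 1471, 1353 and 1349 CPM in VmSC5 adipogenic cultures, against 67.8, 57.3 and 70.4 CPM in fresh VmSC5 (4.84 ± 0.13, edgeR adjusted p = 2.55e-21). Both groups of libraries stood well apart. Dld, Dlat and Pdha1 rose by 4.49 ± 0.16, 3.75 ± 0.16 and 2.65 ± 0.14 in VmSC5 and by 3.79 ± 0.15, 3.78 ± 0.16 and 2.70 ± 0.14 in VmSC4. Mpc1 and Mpc2 rose by 4.64 ± 0.14 and 4.16 ± 0.13 in VmSC5, and 8 of the 11 carriers and partner enzymes rose in each population, with Pdp1, a phosphatase that reactivates the complex and is named here after its values were seen, lower. Pdk1 was at 118, 115 and 162 CPM in VmSC5 adipogenic cultures, against 4.63, 3.08 and 3.17 CPM in fresh VmSC5 (5.59 ± 0.22, edgeR adjusted p = 1.17e-17). In these comparisons adipocyte markers summed to 28416 to 29490 CPM in VmSC5 adipogenic cultures, against 87.7 to 121 CPM in fresh VmSC5, and stromal markers to 1326 to 1392 CPM, against 42601 to 44324 CPM. Macrophage markers stood at 11.2 to 18.7 CPM, against 3.71 to 5.32 CPM, with C1qa and Itgam at 0 in the cultures. Culture, lysis in the well, depth and differentiation cannot be told apart here.

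After culture no member passed the test between the 2 populations. In VmSC5 against VmSC4 adipogenic cultures 0 of 34 members were called in edgeR (0.340% of all 13221 genes tested were called), 6 had an unadjusted p under 0.05, and DESeq2 called 0. A fit of these 6 libraries alone called 3 members higher, and 1.06% of its 9286 genes. Pfkp, for example, was at 385, 335 and 391 CPM in VmSC5 adipogenic cultures and 304, 239 and 294 CPM in VmSC4 adipogenic cultures (0.38 ± 0.12, edgeR adjusted p = 0.261). The response to culture did differ for 4 members, which rose more in VmSC5 (1.85% of all genes had a positive difference, VmSC5 minus VmSC4), and 0 had a negative difference (1.01%). These were Bnip3, with a difference in log2 response of 1.18 ± 0.21, Pdk1 with 1.23 ± 0.29, Egln3 with 2.18 ± 0.51 and Eno1 with 0.68 ± 0.19 (edgeR adjusted p = 0.00127, 0.0184, 0.0385 and 0.0489). All 4 were lower in fresh VmSC5 than in fresh VmSC4. Of the 4, Bnip3 passed under every alternative run and with each library left out, and the others did not. Across all genes 245 had a positive and 134 a negative difference with TMM factors, against 383 and 90 with total counts.

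Fresh VmSC5 had less of several members than fresh VmSC4. Of 32 members tested, 11 were lower in VmSC5 (11.0% of all 13947 genes tested were lower) and 1 was higher (7.41%), with a median log2 fold change of -0.15 over the members and -0.02 over all genes. RLE scaling gave 9 lower and 3 higher, and total-count scaling 12 and 0, while all genes split into 1986 lower and 726 higher with total counts, against 1532 and 1034. Hk2, Ldhb, Bnip3 and Pdk3 kept their calls under every alternative run and with each library left out, and the other 8 did not. Hk2 stood at 2.47, 4.89 and 3.75 CPM in fresh VmSC5, against 9.11, 7.60 and 11.2 CPM in fresh VmSC4 (-1.24 ± 0.25, edgeR adjusted p = 0.00115). Ldhb was at 115, 116 and 124 CPM in VmSC5, against 234, 236 and 154 CPM in VmSC4 (-0.72 ± 0.13, edgeR adjusted p = 0.000416). Bnip3 was at 17.2, 14.9 and 10.3 CPM in VmSC5, against 30.7, 33.9 and 27.2 CPM in VmSC4 (-1.02 ± 0.20, edgeR adjusted p = 0.000662). No VmSC5 library of these 3 genes reached the lowest VmSC4 library. Egln3 had 0.927, 1.49 and 0.235 CPM in VmSC5 and 7.03, 3.93 and 2.65 CPM in VmSC4 (-2.24 ± 0.66, edgeR adjusted p = 0.0188), low in either. It missed the threshold in DESeq2 (adjusted p = 0.0549), and in edgeR without VmSC4 replicate 1 (0.105) or VmSC5 replicate 3 (0.0945). Log2 fold changes were -0.78 ± 0.18 for Pdk3, -0.68 ± 0.18 for Dld and -0.63 ± 0.17 for Hif1a (edgeR adjusted p = 0.00269, 0.00994 and 0.0129). Dld lost its call without VmSC4 replicate 3 (0.0529) or VmSC5 replicate 2 (0.0596) or 3 (0.063), and Hif1a without VmSC5 replicate 3 (0.097) or VmSC4 replicate 3 (0.0557). The member higher in VmSC5 was Ldha, at 435, 428 and 569.7 CPM in VmSC5 and 363, 446 and 369 CPM in VmSC4, which overlapped (0.38 ± 0.12, edgeR adjusted p = 0.0311). That call was lost with total-count scaling (0.0927), in a fit of the 2 groups alone (0.0831), and without VmSC4 replicate 1 (0.104) or 3 (0.0717) or VmSC5 replicate 3 (0.146). Its share beside Ldhb was 73.3 ± 2.34% of the lactate dehydrogenase transcripts per kb in VmSC5 and 56.8 ± 5.31% in VmSC4. Mitochondrially encoded transcripts took 0.0722% to 0.167% of the counts in VmSC5 and 0.304% to 0.423% in VmSC4, macrophage markers summed to 3.71 to 5.32 CPM and 9.93 to 24.3 CPM, and their part in these calls was not tested.

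The question behind the transfer was whether VmSC4 can become VmSC5 in a recipient mouse. Against fresh cells, lower glycolytic enzymes fell in the transferred cells and Hk2 and Eno2 rose. In VmSC5-derived VmSC5, 11 of 32 members were higher than in fresh VmSC5 (23.9% of all 13947 genes tested were higher) and 11 were lower (22.4%). In VmSC4-derived VmSC4, 7 were higher than in fresh VmSC4 (21.4%) and 13 were lower (24.7%). The 2 comparisons share no library. Higher in both were Eno2, Hif1a, Hk2, Pdk1, Pdk4 and Slc16a3, which are 54.5% of the 11 and 85.7% of the 7. Lower in both were Aldoa, Eno1, Gapdh, Gpi1, Ldhb, Pdk2, Pfkp, Pgam1, Pgk1, Pkm and Tpi1, which are 100% of the 11 and 84.6% of the 13. Calls shared by these 2 comparisons were not counted over all genes. Hk2 was at 42.8 and 45.0 CPM in VmSC5-derived VmSC5, against 2.47, 4.89 and 3.75 CPM in fresh VmSC5 (3.51 ± 0.27, edgeR adjusted p = 1.51e-10). In VmSC4-derived VmSC4 it had 27.2, 31.0 and 25.0 CPM, against 9.11, 7.60 and 11.2 CPM in fresh VmSC4 (1.58 ± 0.23, edgeR adjusted p = 5.21e-06). Eno2 was at 70.6, 78.8 and 64.0 CPM in VmSC4-derived VmSC4, against 33.1, 22.0 and 33.4 CPM in fresh VmSC4 (1.28 ± 0.18, edgeR adjusted p = 3.66e-06). Transferred libraries lay above all fresh ones for both genes. Aldoa was at 619 and 580.5 CPM in VmSC5-derived VmSC5, against 1079, 1156 and 1104 CPM in fresh VmSC5 (-0.95 ± 0.12, edgeR adjusted p = 7.85e-07). In VmSC4-derived VmSC4 it had 469.6, 473 and 504 CPM, against 1180.4, 1102 and 967 CPM in fresh VmSC4 (-1.14 ± 0.11, edgeR adjusted p = 4.94e-09). Pdk2 fell by 1.51 ± 0.16 in VmSC4-derived VmSC4 (edgeR adjusted p = 3.04e-08), at 72.1, 56.9 and 74.7 CPM, against 243, 176 and 178 CPM in fresh VmSC4. Slc16a1 passed in the VmSC5 comparison, at 13.3 and 14.0 CPM in VmSC5-derived VmSC5, against 4.53, 2.45 and 2.81 CPM in fresh VmSC5 (2.00 ± 0.41, edgeR adjusted p = 0.000295), and the difference between the comparisons was not tested. Several calls rested on 1 library. In VmSC5-derived VmSC5 the calls of Bnip3, Eno2, Hif1a, Pdha1, Pdhb, Pgam1, Pgk1, Slc16a3 and Tpi1 each ended in at least 1 omission, and in VmSC4-derived VmSC4 those of Egln1, Hif1a, Hk1 and Pgam1. Eno2 in VmSC5-derived VmSC5 had an adjusted p of 0.178 without replicate 1 of that group, and 0.0625 or 0.083 without fresh VmSC5 replicate 1 or 3. By the same test, Slc16a3 in VmSC5-derived VmSC5 had an adjusted p of 0.161 without replicate 1 of that group, and Hif1a in VmSC4-derived VmSC4 0.0691 without replicate 3 of that group and 0.0537 without fresh VmSC4 replicate 2. Stromal markers summed to 84142 to 85016 CPM in VmSC5-derived VmSC5 and 124042 to 127784 CPM in VmSC4-derived VmSC4, against 42601 to 44324 CPM in fresh VmSC5 and 38736 to 44943 CPM in fresh VmSC4. Mitochondrially encoded transcripts took 0.831% to 1.04% of the counts in VmSC5-derived VmSC5 and 0.670% to 0.871% in VmSC4-derived VmSC4, against 0.0722% to 0.167% in fresh VmSC5 and 0.304% to 0.423% in fresh VmSC4. The part of the markers and of this share in these differences was not tested. Transfer, recovery from the recipient, preparation and depth cannot be told apart here.

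Few members passed between the transferred groups. In VmSC4-derived VmSC5 against VmSC4-derived VmSC4, edgeR and DESeq2 each called 0 of 32 members (1.77% of all 13947 genes tested were called in edgeR), and 4 members, Gpi1, Tpi1, Egln1 and Dlat, had an unadjusted p under 0.05. A fit of the 2 groups alone called 1 member lower, and 5.09% of its 12106 genes. In VmSC4-derived VmSC5 against VmSC5-derived VmSC5, 1 member was lower (0.624% of all genes were lower) and 0 were higher (0.523%). That member was Hk2, at 21.4, 14.4 and 20.6 CPM in VmSC4-derived VmSC5, against 42.8 and 45.0 CPM in VmSC5-derived VmSC5 (-1.15 ± 0.25, edgeR adjusted p = 0.0154, DESeq2 adjusted p = 0.00199). The groups did not overlap, but the call ended without replicate 2 of the VmSC4-derived VmSC5 (0.112), or without replicate 1 (0.0783) or 2 (0.188) of the VmSC5-derived VmSC5.

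Floating cells of toxin-treated DTR+ and DTR- mice addressed the loss of Treg cells in the tissue. With 2 libraries a group, edgeR called 0 of 31 members tested, against 2.43% of all 11803 genes. At an unadjusted p under 0.05 there were 6, and DESeq2 called 1, which was lower in DTR+. The closest was Pfkfb3, which raises the phosphofructokinase activator. It stood at 425 and 106 CPM in DTR+ cells, against 1883 and 1861 CPM in DTR- cells, both DTR+ libraries below both DTR- libraries (-2.56 ± 0.68, edgeR adjusted p = 0.0513, DESeq2 adjusted p = 0.00115). It passed in edgeR with RLE scaling (0.0432) and without the low-count filter (0.0181), and missed with total-count scaling (0.288). Pfkfb4 had 9.48 and 5.59 CPM in DTR+ and 28.5 and 30.6 CPM in DTR- cells, and Hif1a 51.9 and 9.54 CPM in DTR+ and 95.6 and 126 CPM in DTR- cells. Aldoa had 2911 and 6691 CPM in DTR+ and 2147 and 1549 CPM in DTR- cells, and Eno1 494 and 923 CPM and 355 and 320.1 CPM. Of the 31 tested members 17 did not overlap between the groups, as did 51.1% of all genes tested, and the 2 DTR+ libraries stood far apart from each other, as for Pdha1 at 1008 and 194 CPM, against 448 and 536 CPM in DTR- cells. The second of the 2 DTR+ libraries, replicate 3, was the low one for Pdha1, Hif1a and Dlat. Without DTR+ replicate 2 edgeR called 18 members and 42.6% of all genes, and without DTR+ replicate 3 it called 3 members and 7.15% of all genes. Endothelial markers summed to 3.27 to 21.4 CPM in DTR+ and 241 to 341 CPM in DTR- cells, macrophage markers to 80.7 to 120 CPM and 286 to 352 CPM, stromal markers to 197 to 234 CPM and 587 to 1632 CPM, and skeletal muscle markers to 97.2 to 205 CPM and 48.1 to 51.7 CPM. Their part in the values of these members was not tested.

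In Treg cells the altered Osm gene came with no called member. Of 33 members tested edgeR and DESeq2 each called 0 (0.0526% of all 11416 genes tested were called in edgeR), and 3 had an unadjusted p under 0.05, namely Eno1, Pfkfb3 and Pfkfb4. Eno1 was at 348, 387 and 296 CPM in KO and 285, 246 and 285 CPM in WT Treg cells, and Pfkfb3 at 29.2, 49.8 and 51.4 CPM in KO and 81.6, 60.8 and 62.3 CPM in WT. Hk1 had 140.2, 343 and 281 CPM in KO and 157, 201 and 166 CPM in WT, and Hif1a 303, 206 and 297 CPM in KO and 307, 347 and 299.5 CPM in WT. The groups overlapped for Hk1 and Hif1a. Without KO replicate 1 edgeR called 1 member higher, and 3.55% of all genes.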

How the data were processed

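The authors deposited a table of whole-number counts per gene. Per the submitters' processing notes, STAR 2.7.3a and featureCounts were used with the mm10 build, and the annotation release and strand setting are not given in the sources used here. Per the labels' protocols, 1000 double-sorted cells, lysates of cultured cells or 2 ng of RNA of floating cells entered each library, made by the ImmGen low-input protocol.

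The 34 members, the 9 lists of 76 further pathway genes and the 10 marker lists were chosen with earlier results of these data known, so no list is independent evidence of its direction. The genes that could be named were all members, Slc2a1, Slc2a4, Mpc1, Mpc2 and Vegfa, and up to 3 genes a list with the smallest adjusted p. Values of Vegfa are not reported here. CPM is counts over the library total. Differences were tested in edgeR 4.0.16 (R 4.3.3) by the quasi-likelihood F test with TMM scaling and robust dispersions. Genes were kept by the edgeR default filter at a minimum count of 10, and p was adjusted by Benjamini-Hochberg over all genes tested. The SE is the log2 fold change over the square root of F. Each experiment was fitted by itself: fresh with transferred cells, fresh with adipogenic cultures, and the others alone, with both differences between responses as contrasts of 4 groups. DESeq2 1.42.0, RLE scaling, no low-count filter, the 2 groups alone, 1 fit of both VmSC5 culture experiments, a replicate block and leaving out each library were alternatives. Total-count scaling and a crossed block were added after seeing the data. The scripts were also run on simulated counts with known changes, and the recovery in each comparison is not reported here. Lengths and positions are of GENCODE M21. Transcript copies were found with blastn 2.17.0. Replicates of a group differed by more than sampling noise. Replicate numbers were not used to pair samples in the reported fits.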

Additional observations from a re-analysis of the deposited data

Results flagged for a closer look

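In 4 members the response to adipogenic culture differed between VmSC5 and VmSC4 by a test of the difference itself (edgeR contrast of 4 groups, n = 3 each). The difference in log2 response was 1.18 ± 0.21 for Bnip3 (SE; edgeR adjusted p = 0.00127), 1.23 ± 0.29 for Pdk1 (edgeR adjusted p = 0.0184), 2.18 ± 0.51 for Egln3 (edgeR adjusted p = 0.0385) and 0.68 ± 0.19 for Eno1 (edgeR adjusted p = 0.0489), each greater in VmSC5.

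Both culture groups and both fresh groups stand behind these values. Bnip3 averaged 834 ± 54.6 CPM in VmSC5 and 735 ± 125 CPM in VmSC4 adipogenic cultures, and 14.1 ± 3.50 CPM in fresh VmSC5 and 30.6 ± 3.33 CPM in fresh VmSC4 (SD, n = 3 each). Egln3 averaged 334 ± 19.8 CPM in VmSC5 and 339 ± 46.6 CPM in VmSC4 adipogenic cultures, and 0.883 ± 0.628 CPM in fresh VmSC5 and 4.54 ± 2.25 CPM in fresh VmSC4. The culture levels overlapped between the populations for both genes and the fresh levels did not. Pdk1 lost its call without fresh VmSC5 replicate 2 (0.0681) or 3 (0.0551), without VmSC4 adipogenic replicate 1 (0.0501) or 2 (0.072) and without VmSC5 adipogenic replicate 3 (0.0793). Egln3 lost its call with RLE scaling (0.0562) and in 9 of 12 omissions of a library, and Eno1 with RLE scaling (0.0675), in DESeq2 (0.0511), with the replicate block (0.0592) and in 10 of 12 omissions.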

How the results depend on the processing

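Most member calls kept their direction under every alternative, but not all stayed below the threshold. Leaving out 1 library at a time ended the call in 119 cases. In 1433 cases the outcome stayed the same, and in 4 a value newly passed. Among the 230 values checked, DESeq2 ended 11 calls, RLE scaling 5, no low-count filter 8, the 2 groups alone 9 and total-count scaling 7. With total counts 1 value also turned round: Hif1a in VmSC4 adipogenic against fresh VmSC4, at -0.15. Why it turned was not tested. Total-count scaling moved the median of all genes by -0.54 and -0.43 in VmSC4 and VmSC5 adipogenic against fresh cells, by -0.36 in DTR+ against DTR-, by 0.12 in the difference between culture responses, by -0.13 in OSM minus Treg and by -0.10 in OSM against PBS, whereas RLE scaling moved it by 0.07 or less. Depth limits the low transcripts (Aldoc, Ankrd37, Egln3), and the floating cells and VmSC5-derived VmSC5 have 2 libraries a group.

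Counts of calls that moved by more than 1.5 times were these. For fresh VmSC5 against VmSC4, the 2 groups alone called 7 members, against 12. For VmSC4-derived VmSC5 against VmSC4-derived VmSC4, DESeq2 called 478 genes, no filter 450 and the 2 groups alone 893 genes and 1 member, against 247 and 0. For VmSC4-derived against VmSC5-derived VmSC5, DESeq2 called 268 genes, no filter 314 and the 2 groups alone 529, against 160. For VmSC5 against VmSC4 adipogenic cultures, DESeq2 called 104 genes, no filter 167 and the 2 groups alone 215 genes and 3 members, against 45 and 0. For the difference between culture responses, DESeq2 called 620 genes and no filter 644, against 379, and RLE scaling called 2 members and no filter 9, against 4. For DTR+ against DTR-, DESeq2 called 509 genes, total-count scaling 0 and the replicate block 111, against 287, and DESeq2, RLE scaling and no filter each called 1 member, against 0. For KO against WT Treg cells, DESeq2 called 50 genes and no filter 199, against 6.

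Leaving out 1 library at a time gave 25 to 26 members in OSM against PBS (3989 to 4364 genes), 23 to 25 with against without Treg (4778 to 5363), 24 to 27 in OSM minus Treg (3547 to 3839), 31 to 32 in VmSC5 (8464 to 9115) and 30 to 31 in VmSC4 (8418 to 9065) adipogenic against fresh, 1 to 6 in the difference of culture responses (155 to 661) and 0 in VmSC5 against VmSC4 adipogenic cultures (17 to 99). It gave 7 to 11 in fresh VmSC5 against VmSC4 (1748 to 2602), with 7 without fresh VmSC5 replicate 2 or 3, then 17 to 22 in VmSC5-derived VmSC5 (4669 to 6201) and 16 to 20 in VmSC4-derived VmSC4 (5425 to 5969) against fresh cells. Between transferred groups it gave 0 (39 to 166 genes) for VmSC4-derived VmSC5 against VmSC4-derived VmSC4 and 0 to 1 (31 to 84) against VmSC5-derived VmSC5, in DTR+ against DTR- 0 to 18 (6 to 5370), and in KO against WT Treg cells 0 to 1 (0 to 586).

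Replicate numbers were tried as a replicate block. Same-numbered libraries correlated by -0.0927 to 0.164 outside the floating cells. The labels do not say whether a shared number means a shared animal, culture or day. The block gave 25 members in OSM against PBS, 24 with against without Treg, 25 in OSM minus Treg, 32 and 30 in VmSC5 and VmSC4 adipogenic against fresh, 3 in the difference of culture responses, 11 in fresh VmSC5 against VmSC4, 20 in each transferred against fresh comparison, 1 in VmSC4-derived against VmSC5-derived VmSC5 and 0 in the others. With the block 8 of the 230 values lost their call. In VmSC5 against VmSC4 adipogenic cultures each library correlated best with its own number, at 0.164, 0.163 and 0.0654. Whether these cultures were paired is not known. In the floating cells same-numbered libraries correlated by -0.397, and the crossed pairing called 1055 genes and 3 members.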

Other observations

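Genes of neighbouring routes of glucose carbon were called in the same cultures as the members. Their counts stand beside shares of all genes tested of 22.8% higher and 23.0% lower with OSM, 22.4% higher and 21.0% lower with Treg, and 33.4% higher and 37.6% lower in VmSC5 and 31.9% higher and 38.5% lower in VmSC4 adipogenic cultures. The glycerol phosphate list was lower with OSM in 3 of 3 genes, led by Gpd1, which makes glycerol phosphate for triglycerides, at 9.04 ± 7.39 CPM with OSM and 769.6 ± 36.5 CPM with PBS (SD, n = 3 each; -6.24 ± 0.33, edgeR adjusted p = 6.67e-06). With Treg it was also lower in 3 of 3, with Gpd1 at 3024 ± 176 CPM with Treg and 5653 ± 240 CPM without Treg. In adipogenic against fresh cells 2 of 3 were higher and 1 lower in each population, with Gpd1 at 4842 ± 413 CPM in VmSC5 adipogenic cultures and 0.783 ± 0.763 CPM in fresh VmSC5. Pentose phosphate genes, which supply NADPH, were lower in 6 of 7 with OSM and 0 higher, and lower in 5 of 8 with Treg and 1 higher, and in adipogenic cultures 7 of 8 were higher and 1 lower in each population. G6pdx, the first enzyme, was at 195 ± 21.5 CPM with OSM and 653 ± 31.9 CPM with PBS (-1.63 ± 0.09, edgeR adjusted p = 9.67e-21).

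Regulators of glycolytic genes were lower in 4 of 6 with OSM and 0 higher, and lower in 3 of 6 with Treg and 0 higher. Among them Mlxipl, the carbohydrate-response factor ChREBP, was at 1.69 ± 1.07 CPM with OSM and 20.4 ± 5.02 CPM with PBS (-3.49 ± 0.49, edgeR adjusted p = 5.39e-08). Of the lactate partners, 2 of 3 were higher with OSM and 1 lower. Emb was at 412 ± 30.9 CPM with OSM and 60.2 ± 10.0 CPM with PBS (2.90 ± 0.11, edgeR adjusted p = 1.18e-26), and Hcar1, the lactate receptor, was at 3.68 ± 0.37 CPM with OSM and 27.7 ± 3.48 CPM with PBS (-2.79 ± 0.36, edgeR adjusted p = 7.71e-09). In the HIF pathway 4 of 6 genes were higher with OSM and 0 lower, led by Epas1 at 1064 ± 35.1 CPM with OSM and 310 ± 32.8 CPM with PBS (1.88 ± 0.09, edgeR adjusted p = 2.46e-24). In adipogenic against fresh cells 1 of 6 of these was higher and 3 lower in each population. Arnt, the constant partner of HIF-1alpha, was at 18.9 ± 0.38 CPM in VmSC5 adipogenic cultures and 84.3 ± 15.9 CPM in fresh VmSC5 (-1.73 ± 0.21, edgeR adjusted p = 6e-08), while 9 of 15 HIF targets were higher and 1 lower. Other glycolytic isoforms had 0 higher and 1 lower of 5 with OSM, a share near that of all genes. In DTR+ against DTR- floating cells edgeR called 0 of the 64 tested genes of the 9 lists, 15 had an unadjusted p under 0.05 and DESeq2 called 3, Mpc1, Myc and Tkt, named after their values were seen. In KO against WT Treg cells edgeR and DESeq2 each called 0 of 54, and 5 had an unadjusted p under 0.05.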
